A study of Mus musculus with 6 samples.

Results

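The 27 genes described here make or control cholesterol, and were taken from the count table by symbol. They were 27 of 52459 rows in the table. RNA was sequenced in bulk from whole brains of E14.5 C57BL/6 mouse embryos, a stage at which the brain is still generating neurons. The libraries came from 3 brains labelled Mfsd7c-/- and 3 labelled wild type, called KO and WT below. The labels state no treatment, litter or sex, and they do not say which part of Mfsd7c was deleted. The comparison addressed whether transcripts of sterol synthesis and sterol control differed between KO and WT brains.

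Cholesterol is built from acetyl-CoA by a long chain of enzymes that passes through mevalonate, farnesyl diphosphate, squalene and lanosterol. The embryonic brain makes its own cholesterol for growing membranes, since little enters from blood once the blood-brain barrier has formed. When membranes of the endoplasmic reticulum run low in sterol, the escort protein SCAP carries SREBP transcription factors to the Golgi for cleavage, and the released fragments switch on the enzyme genes. INSIG proteins hold SCAP back when sterol is plentiful. LXR receptors sense oxysterols and switch on exporters such as ABCA1 and ABCG1.

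The libraries held 43784619 to 50549673 counts. Mfsd7c, the targeted gene, whose current symbol is Flvcr2, had 119, 129 and 130 counts in KO replicates 1, 2 and 3, against 206, 291 and 259 counts in WT replicates 1, 2 and 3. The edgeR quasi-likelihood test gave it a log2 fold change of -0.96 (SE 0.147, adjusted p = 0.0271 by Benjamini-Hochberg), and its adjusted p was 0.109 to 0.189 when any one library other than WT replicate 1 was left out. Libraries stood apart within the groups. Epidermal markers, a list of 10 keratinocyte genes, summed to 480, 26.7 and 87.4 CPM in KO replicates 1, 2 and 3, against 416, 30.7 and 21.1 CPM in WT replicates 1, 2 and 3. Hox genes of hindbrain and spinal cord, a list of 12, summed to 0.591 to 2.67 CPM in the KO libraries, against 4.35, 149 and 43.4 CPM in WT replicates 1, 2 and 3. Xist had 6 to 17 counts in the KO libraries, against 27, 82198 and 8 counts in WT replicates 1, 2 and 3. Brain identity was clear in each library, with 8 neuronal markers summing to 5692 to 6250 CPM in KO and 5690 to 6625 CPM in WT brains. Liver is another organ rich in sterol synthesis. Of 8 hepatocyte markers, Ttr, which the choroid plexus also makes, was at 575 to 1226 CPM in KO and 851 to 970 CPM in WT brains, and each of the other 7 was at most 1.30 CPM. Alb was at most 0.0695 CPM in KO and at most 0.0451 CPM in WT brains, and Serpina1a was at 0 in all 6 libraries. Of the 8 oligodendrocyte lineage genes, which mark the cells that make myelin, none was at 0, and their sum was 180 to 206 CPM in KO and 188 to 225 CPM in WT brains.

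None of the 27 genes passed the test. All 27 had enough counts to be tested, with 181 to 23380 counts per library, and edgeR's quasi-likelihood test, at an FDR of 0.05, called 0 higher and 0 lower in KO. Over all 19565 genes tested, 0.659% passed, 0.624% higher and 0.0358% lower in KO, which is 129 genes. The 0 of 27 is therefore near the background share. The 129 became 51 without KO replicate 1, 41 without KO replicate 3, 388 without WT replicate 1, 36 without WT replicate 2 and 44 without WT replicate 3, and 0 of the 27 passed in each of these fits. The DESeq2 Wald test and limma-voom also called 0 of the 27. At an unadjusted p under 0.05, edgeR gave 4 of the 27, DESeq2 gave 4 and limma-voom gave 2, beside 8.09% of all genes in edgeR. By direction, 3 of the 4 in edgeR were higher in KO (Hmgcs1, Insig2 and Abcg1), beside 4.63% of all genes, and 1 was lower (Abca1), beside 3.46%. The log2 fold changes ran from -0.28 for Fdps to 0.26 for Abcg1, with a median of 0.03, against a median of -0.01 over all genes tested. Of the 27, 16 were above 0, beside 47.4% of all genes, and 11 were below, beside 52.6%, and no sign turned under DESeq2 size factors or upper-quartile factors.

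A missed threshold does not show that levels were equal, so the 95% intervals of the differences are given. For 26 of the 27 genes the interval lay within 1.5-fold in either direction, and for 19 it lay within 1.25-fold. Fdps was the exception at 1.5-fold, with a KO over WT fold from 0.615 to 1.10. For scale, the smallest absolute log2 fold change among the 129 genes that passed was 0.40.

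**Figure D1:**
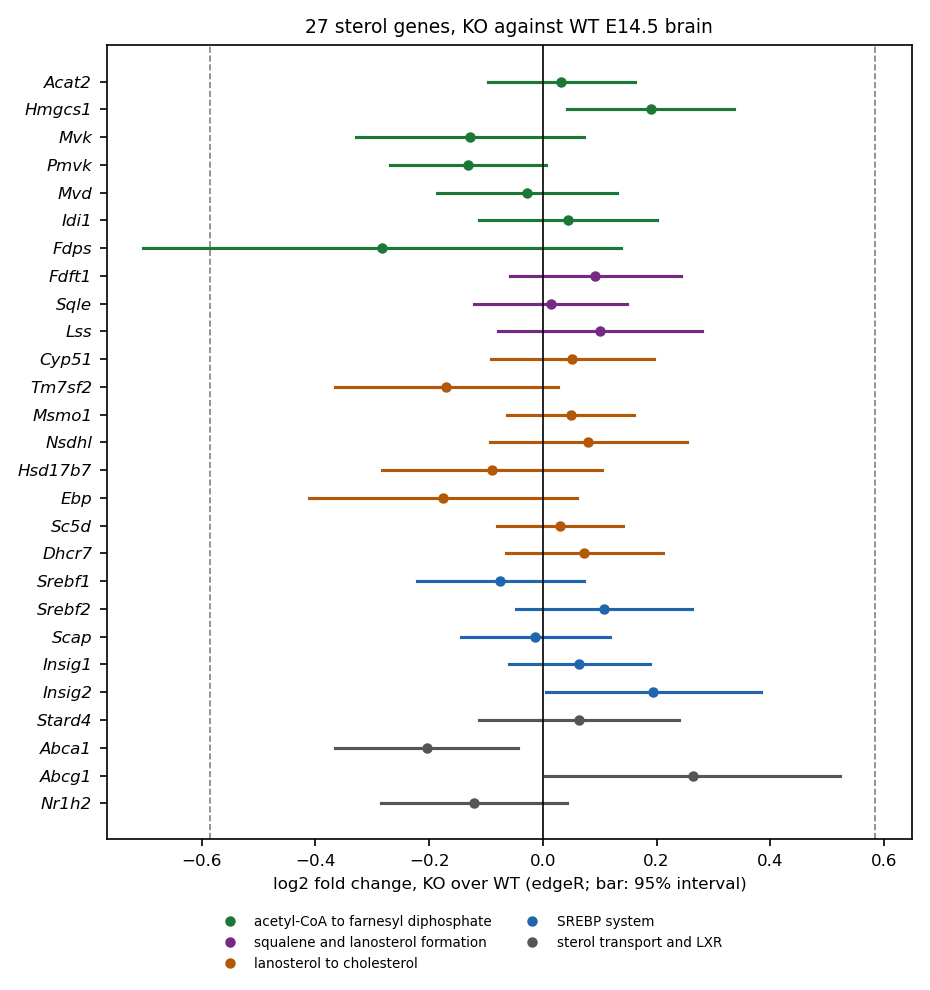
Log2 fold change of each sterol gene, KO over WT (x axis), with points for the edgeR estimate and bars for its 95% interval, coloured by role. Dashed lines mark 1.5-fold in either direction, and 26 of the 27 intervals lie between them.

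The early enzymes carry acetyl-CoA to farnesyl diphosphate, and 0 of these 7 passed. Hmgcs1 makes HMG-CoA from acetoacetyl-CoA and was the most abundant of the 27 genes. It had 493, 443 and 488 CPM in KO replicates 1, 2 and 3, against 424, 412 and 413 CPM in WT replicates 1, 2 and 3. Each KO value was above each WT value. The log2 fold change was 0.19 (SE 0.0645, 95% interval 0.043 to 0.34), the lowest p-value of the 27, and it missed the threshold (edgeR adjusted p = 0.463). Pmvk, the phosphomevalonate kinase, lay the other way, with 35.3, 35.3 and 34.4 CPM in KO against 38.4, 39.3 and 37.4 CPM in WT replicates 1, 2 and 3. All 3 KO values were below all 3 WT values, with a log2 fold change of -0.13 (SE 0.0602, 95% interval -0.27 to 0.0063, edgeR adjusted p = 0.635).

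Acat2, the acetoacetyl-CoA thiolase that opens the pathway, averaged 147 ± 6.80 CPM in KO and 144 ± 4.49 CPM in WT brains (SD, n = 3 each). Its near neighbour and paralog Acat3 is a separate row, and the handling of reads shared between paralogs was not given in the sources used here. Mvk, the mevalonate kinase, averaged 37.6 ± 3.20 CPM in KO and 41.1 ± 3.44 CPM in WT brains (SD, n = 3 each). Mvd, which decarboxylates mevalonate diphosphate, had a log2 fold change of -0.03 and Idi1, the isopentenyl diphosphate isomerase, one of 0.04, and both genes overlapped between the groups. Fdps, the farnesyl diphosphate synthase, was scarce, at 4.195, 4.02 and 5.22 CPM in KO against 4.22, 6.11 and 6.00 CPM in WT replicates 1, 2 and 3. WT replicate 1 lay with the KO libraries, and the groups overlapped. On GRCm38, 1124 exonic bases of Fdps are shared on the same strand with Gm43738, which was at 0 CPM in 5 libraries and at 0.0199 CPM in WT replicate 2. How reads in shared bases were counted is not given, so the level of Fdps is uncertain.

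The next 3 enzymes form squalene and lanosterol, and 0 of 3 passed. Fdft1, the squalene synthase, had 166, 146 and 170 CPM in KO replicates 1, 2 and 3, against 153, 148 and 150 CPM in WT replicates 1, 2 and 3. KO replicates 1 and 3 were above the WT range and KO replicate 2 was below it. Sqle, the squalene epoxidase, showed the same arrangement, with 163, 148 and 166 CPM in KO against 157, 157 and 159 CPM in WT replicates 1, 2 and 3. Their log2 fold changes were 0.09 for Fdft1 (SE 0.0662) and 0.01 for Sqle (SE 0.0590). Fdft1 shares 774 exonic bases with Ctsb on the opposite strand, and the strand setting of the counting is not given. Lss, the lanosterol synthase, was at 81.3, 79.9 and 81.9 CPM in KO and at 66.1, 80.4 and 80.1 CPM in WT replicates 1, 2 and 3. WT replicate 1 alone was low.

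The last 8 enzymes turn lanosterol into cholesterol, and again 0 passed. Cyp51, which removes the 14-alpha methyl group of lanosterol, averaged 188 ± 11.9 CPM in KO and 182 ± 4.83 CPM in WT brains (SD, n = 3 each). Msmo1, the C4 methyl oxidase, had 83.6, 81.1 and 84.1 CPM in KO and 78.1, 81.4 and 81.2 CPM in WT replicates 1, 2 and 3. Sc5d, the lathosterol desaturase, had 79.6, 80.0 and 82.8 CPM in KO and 77.6, 79.6 and 80.2 CPM in WT replicates 1, 2 and 3. Both were among the steadiest of the 27, with coefficients of variation of 1.94% in KO and 2.33% in WT brains for Msmo1, and of 2.21% in KO and 1.71% in WT brains for Sc5d. Dhcr7, the reductase of 7-dehydrocholesterol, averaged 56.6 ± 2.76 CPM in KO and 53.8 ± 0.944 CPM in WT brains (SD, n = 3 each), a log2 fold change of 0.07 (SE 0.0602).

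Nsdhl and Ebp, a C4 decarboxylating dehydrogenase and a sterol isomerase, lie on the X chromosome. Nsdhl had 37.5, 32.7 and 32.5 CPM in KO and 33.3, 31.8 and 32.1 CPM in WT replicates 1, 2 and 3. Ebp had 9.80, 9.54 and 11.3 CPM in KO and 11.97, 11.1 and 11.5 CPM in WT replicates 1, 2 and 3. WT replicate 2, the library with high Xist, was the lowest of the 6 for Nsdhl and within the range of the others for Ebp. Tm7sf2, a sterol C14 reductase, and Hsd17b7, a 3-keto sterol reductase, had log2 fold changes of -0.17 (SE 0.0859) and -0.09 (SE 0.0852). Tm7sf2 had 30.6, 31.9 and 31.8 CPM in KO and 31.2, 36.8 and 38.2 CPM in WT replicates 1, 2 and 3. WT replicates 2 and 3 were high, and WT replicate 1 lay among the KO libraries. Tm7sf2 shares 532 exonic bases on the same strand with Vps51, which had a log2 fold change of -0.11.

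The SREBP system had 5 measured genes and 0 passed. Srebf2, whose product drives the cholesterol enzymes, had 318, 280 and 301 CPM in KO replicates 1, 2 and 3, against 291, 271 and 271 CPM in WT replicates 1, 2 and 3. KO replicate 2 lay within the WT range, and the log2 fold change was 0.11 (SE 0.0678, edgeR adjusted p = 0.747). Srebf1, whose product favours fatty acid genes, had 59.9, 63.0 and 54.9 CPM in KO against 62.5, 61.8 and 62.9 CPM in WT replicates 1, 2 and 3, and the groups overlapped. Per kilobase of exon, the ratio of Srebf2 to Srebf1 was 4.16, 3.48 and 4.30 in KO replicates 1, 2 and 3, against 3.65, 3.44 and 3.38 in WT replicates 1, 2 and 3. Scap averaged 78.5 ± 4.12 CPM in KO and 79.2 ± 2.34 CPM in WT brains (SD, n = 3 each).

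Insig1 is itself an SREBP target, and Insig2 depends on sterols less. Insig1 had 77.0, 73.0 and 73.9 CPM in KO and 68.8, 74.4 and 70.9 CPM in WT replicates 1, 2 and 3, with overlap. Insig2 had 27.03, 30.5 and 32.7 CPM in KO and 26.4, 25.4 and 27.01 CPM in WT replicates 1, 2 and 3. Its KO values were all above its WT values, though KO replicate 1 and WT replicate 3 were nearly level. The log2 fold change of Insig2 was 0.19 (SE 0.0830, 95% interval 0.0049 to 0.38, edgeR adjusted p = 0.601).

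Of the 4 genes of sterol transport and LXR sensing, 0 passed, and the 2 exporters leaned in opposite directions. Abca1, which loads cholesterol onto lipid-poor apolipoproteins, had 80.7, 90.4 and 95.3 CPM in KO replicates 1, 2 and 3, against 100, 108 and 99.0 CPM in WT replicates 1, 2 and 3. All KO values were below all WT values. The log2 fold change was -0.20 (SE 0.0707, 95% interval -0.37 to -0.043, edgeR adjusted p = 0.478). Abcg1, which exports cholesterol to mature lipoproteins, had 24.0, 20.7 and 27.045 CPM in KO and 22.1, 18.9 and 18.8 CPM in WT replicates 1, 2 and 3. KO replicate 2 lay below WT replicate 1. The log2 fold change of Abcg1 was 0.26 (SE 0.114, 95% interval 0.0035 to 0.52, edgeR adjusted p = 0.606). Stard4, a carrier of cholesterol between membranes, averaged 42.6 ± 1.73 CPM in KO and 40.8 ± 3.41 CPM in WT brains (SD, n = 3 each). Nr1h2, which encodes LXR beta, had 46.9, 48.9 and 47.6 CPM in KO and 47.3, 54.5 and 54.1 CPM in WT replicates 1, 2 and 3.

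**Figure D2:**
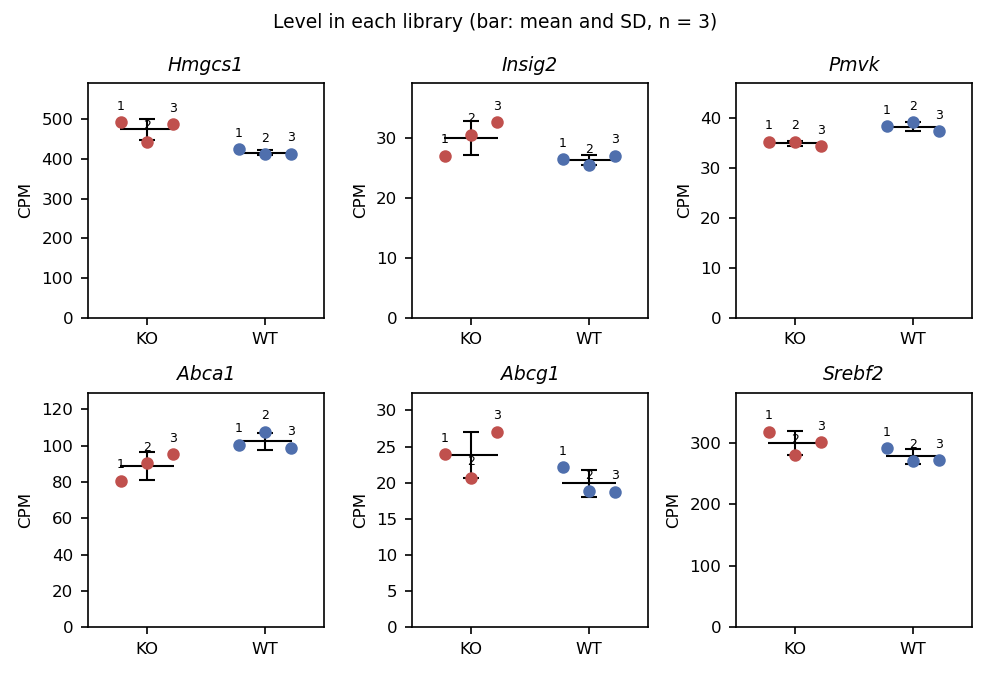
CPM (y axis, from 0) of 6 genes in each library, KO left and WT right. Points are libraries numbered by replicate and bars give the mean and SD (n = 3). Hmgcs1 and Insig2 have all KO points above all WT points, Pmvk and Abca1 have them below, and Abcg1 and Srebf2 overlap.

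Non-overlap was met by 4 genes, with 2 of 27 higher in KO (Hmgcs1 and Insig2) and 2 lower (Pmvk and Abca1). Over all genes tested 7.84% were higher without overlap and 6.58% lower, so the share among the 27 was near that background. Their promoters are shown as examples because these 4 met non-overlap, which is not read as a difference by genotype. The stretches are the 150 bases before the start of each gene in RefSeq on GRCm38.p6, written 5′ to 3′ on the gene's own strand, at chr13:119690201-119690350 (plus strand) for Hmgcs1, chr3:89454391-89454540 (plus) for Pmvk, chr1:121332590-121332739 (minus) for Insig2 and chr4:53159896-53160045 (minus) for Abca1. None of these bases is exonic in GENCODE M21. Where a gene had several RefSeq starts, the stretch is from the start nearest the gene's first base in GENCODE M21. Capitals mark matches, on either strand, to the sterol regulatory element letters TCACNCCAC, the NF-Y letters CCAAT, the Sp1 letters GGGCGG and the E-box letters CACGTG.
Hmgcs1: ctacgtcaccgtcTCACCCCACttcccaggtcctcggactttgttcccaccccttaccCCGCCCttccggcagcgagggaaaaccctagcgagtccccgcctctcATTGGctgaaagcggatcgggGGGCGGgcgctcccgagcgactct
Pmvk: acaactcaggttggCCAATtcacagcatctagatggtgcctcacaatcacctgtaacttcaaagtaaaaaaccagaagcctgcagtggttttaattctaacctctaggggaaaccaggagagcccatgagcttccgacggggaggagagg
Insig2: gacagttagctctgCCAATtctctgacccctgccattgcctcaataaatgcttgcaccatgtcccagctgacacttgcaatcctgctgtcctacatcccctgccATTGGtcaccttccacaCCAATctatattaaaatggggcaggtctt
Abca1: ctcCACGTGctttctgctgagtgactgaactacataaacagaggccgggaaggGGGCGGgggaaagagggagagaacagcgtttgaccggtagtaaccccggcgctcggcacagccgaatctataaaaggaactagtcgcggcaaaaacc

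The Hmgcs1 stretch held the sterol element, which began 137 bases before the start, with 1 NF-Y match and 2 Sp1 matches. The Insig2 stretch held 3 NF-Y matches, the Pmvk stretch 1, and the Abca1 stretch 1 Sp1 match and 1 E-box match. RefSeq windows were matched for 22 of the 27 genes, with 30 windows of 250 bases before the start. Pmvk had 2 of these windows, with NF-Y letters in 1 and Sp1 letters in 0. Insig2 had 3, with NF-Y letters in 1 and Sp1 letters in 2, so its stretch stands for 1 of several starts. The strict sterol element letters stood in 1 of these 22 genes, against 1.22% of the 27025 genes in the table. NF-Y letters stood in 18 of 22, against 37.5% of all genes, and Sp1 letters in 20 of 22, against 35.4%. The letters ACGTG, the core bound by hypoxia-inducible factors, stood in 6 of 22, against 18.5% of all genes. Each E-box contains them, and the E-box letters stood in the same number, 6 of 22, against 6.86%. A gene counted if any of its windows matched, and the 27025 genes were not limited to those expressed in these brains. Per window, NF-Y letters stood in 63.3% of the 30 windows against 33.8% of all windows, and Sp1 letters in 76.7% against 32.7%. These matches describe letters in the windows and were not tested.

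Summed by role, the enzymes overlapped between the genotypes. The 18 synthesis enzymes summed to 1733, 1588 and 1715 CPM in KO replicates 1, 2 and 3, against 1601, 1593 and 1600 CPM in WT replicates 1, 2 and 3. KO replicates 1 and 3 were above the WT libraries, and KO replicate 2 was below all of them. Abundant genes weigh most in such a sum. Hmgcs1 alone averaged 475 CPM in KO and 416 CPM in WT brains, within mean enzyme sums of 1679 and 1598 CPM. The 9 control and transport genes summed to 756, 722 and 757 CPM in KO, against 738, 732 and 726 CPM in WT replicates 1, 2 and 3. In those libraries, 12 genes known to respond to low oxygen summed to 1766, 1417 and 1939 CPM in KO, against 755, 680 and 667 CPM in WT replicates 1, 2 and 3. In the edgeR test 9 of the 12 rose and 0 fell, beside 0.624% and 0.0358% of all genes tested. This list was chosen with earlier results of these data known, so its rise is not an independent result.

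**Figure D3:**
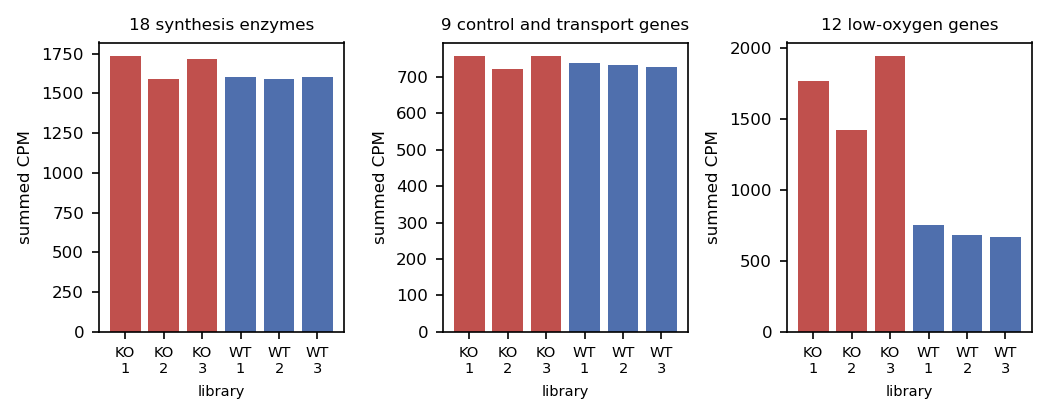
Summed CPM (y axes, from 0) per library for 18 synthesis enzymes, 9 control and transport genes and 12 low-oxygen genes, with KO bars in red and WT bars in blue. The sterol sums overlap between the groups, and the low-oxygen sums do not.

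Within the KO group, replicate 2 was the lowest for 18 of the 27 genes. The shares of all genes with the library orders in this and the next paragraph were not computed. These orders are therefore not read as traits of the sterol genes. KO replicates 1 and 3 were the 2 highest libraries for 10 genes, namely Hmgcs1, Mvd, Fdft1, Sqle, Lss, Cyp51, Msmo1, Dhcr7, Srebf2 and Abcg1, and for 9 of these KO replicate 2 did not exceed the highest WT library. Erythroid genes, a list of 9, summed to 3535, 1768 and 3605 CPM in KO, against 2480, 1154 and 1246 CPM in WT replicates 1, 2 and 3. Epidermal genes were also lowest in replicate 2 among the KO libraries, at the sums given above. Endothelial markers, a list of 8 genes of blood vessel cells, were higher in KO libraries as a sum, at 334, 339 and 368 CPM in KO replicates 1, 2 and 3, against 253, 305 and 298 CPM in WT replicates 1, 2 and 3. Of these 8 genes, 3 rose and 1 fell in the edgeR test, beside 0.624% and 0.0358% of all genes, and none was at 0. The markers did not move together. Without overlap, 4 were higher in KO (Pecam1, Flt1, Emcn and Esam) and 2 were lower (Tek and Cldn5). Over all genes tested these shares were 7.84% and 6.58%. The part of these lists in the values of the sterol genes was not tested. In tissue RNA of this kind, fewer cells of a type and less RNA per cell cannot be told apart.

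WT replicates 2 and 3 were the 2 highest libraries for 4 genes, Fdps, Tm7sf2, Hsd17b7 and Nr1h2. These were also the libraries with high Hox sums. With both left out, a single WT library remains, assumed to vary like the others. The log2 fold changes were then 0.091 for Fdps, 0.054 for Hsd17b7, 0.018 for Tm7sf2 and 0.020 for Nr1h2, all with the sign turned. The 4 genes were picked for being highest in the libraries left out, so an upward move was fixed in advance. The part of Hox-expressing tissue in these values was not tested.

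**Figure D4:**
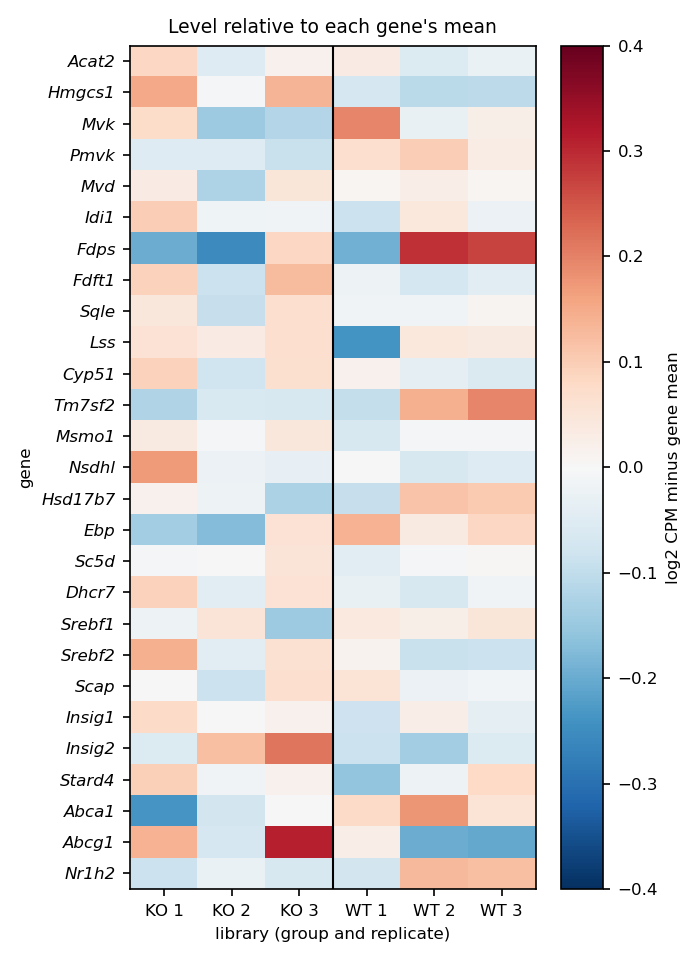
Log2 CPM of each of the 27 genes (rows) in each library (columns), minus the mean of that gene over the 6 libraries; red is above and blue below the mean. KO replicates 1 and 3 are both redder than KO replicate 2 for 18 of the 27 genes. Synthesis enzymes without this order are Pmvk, Tm7sf2, Nsdhl, Hsd17b7 and Sc5d. Fdps, Tm7sf2, Hsd17b7 and Nr1h2 are reddest in WT replicates 2 and 3.

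Levels of different genes were compared per kilobase of GENCODE M21 exon, as RPKM. Hmgcs1 led with 103 ± 5.97 RPKM in KO and 90.6 ± 1.49 RPKM in WT brains (SD, n = 3 each). Acat2 followed at 57.9 ± 2.67 RPKM in KO and 56.6 ± 1.76 RPKM in WT brains. Cyp51 and Srebf2 came next at 41.2 ± 1.09 and 38.7 ± 1.61 RPKM in WT brains, and these 2 neighbours overlapped over the WT libraries. Fdft1 at 35.6 RPKM, Sqle at 28.4 RPKM and Insig1 at 23.1 RPKM in WT brains were each apart from the gene above in the order. From Sc5d at 16.3 RPKM down, many neighbours overlapped, such as Nsdhl, Srebf1, Scap, Idi1 and Abca1, which lay between 9.87 and 11.3 RPKM in WT brains. The lowest were Abcg1 and Fdps. Abcg1 was at 3.28 ± 0.435 RPKM in KO and 2.73 ± 0.261 RPKM in WT brains. Fdps was at 1.06 ± 0.154 RPKM in KO and 1.29 ± 0.253 RPKM in WT brains. How reads in the exonic bases that Fdps shares with Gm43738 were counted is not given, so its place in this order is uncertain.

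**Figure D5:**
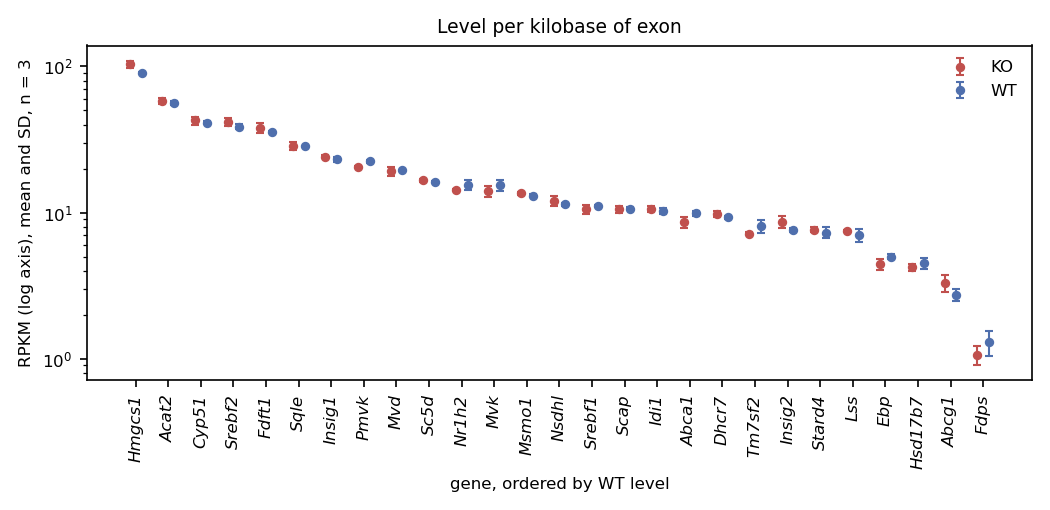
RPKM on a log axis for the 27 genes, ordered by their WT level, with KO and WT points side by side and bars for the SD (n = 3). KO and WT points lie close together over the whole range, from Hmgcs1 near 90.6 RPKM to Fdps near 1.29 RPKM in WT brains.

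Neighbouring lipid pathways were listed by role as context. Of 15 fatty acid and lipogenic SREBP targets, 0 rose and 0 fell, and the 2 with the lowest p-values were Pcyt2, an enzyme of phosphatidylethanolamine synthesis, at -0.27 (SE 0.0759) and the stearoyl-CoA desaturase Scd2 at 0.13 (SE 0.0676) on the log2 scale. Of 12 genes of the isoprenoid, dolichol and ubiquinone branches, Idi2 was too scarce to test and 0 of 11 passed, with Nus1, a dolichol synthesis subunit, at 0.15 (SE 0.0538) and Coq2, of ubiquinone synthesis, at -0.17 (SE 0.0686). Of 12 genes of SREBP processing and sterol-regulated degradation, 0 passed, with the site-2 protease Mbtps2 at 0.12 (SE 0.0602). Of 11 oxysterol enzymes and LXR targets, 0 passed, with the lysophospholipid acyltransferase Lpcat3 at -0.16 (SE 0.0681) and the LXR partner Rxrb at -0.06 (SE 0.0467).

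Of 17 genes of sterol uptake, trafficking and efflux, 1 rose and 0 fell. The 1 was Vldlr, a lipoprotein receptor that in brain also receives reelin. Vldlr had 112, 109 and 134 CPM in KO replicates 1, 2 and 3, against 82.6, 80.2 and 81.8 CPM in WT replicates 1, 2 and 3, with no overlap. Its log2 fold change was 0.54 (SE 0.0787, edgeR adjusted p = 0.0227). Without KO replicate 1 the log2 fold change of Vldlr was 0.57 with an edgeR adjusted p of 0.0712, without WT replicate 2 it was 0.52 with 0.167, and without WT replicate 3 it was 0.54 with 0.126. The endothelial sums given above also differed between the genotypes, and their part in the level of Vldlr was not tested. Soat1, which esterifies cholesterol, was at 0.35 (SE 0.0928, edgeR adjusted p = 0.259). Without WT replicate 1 the context lists had 3 genes lower in KO besides Vldlr, namely Pcyt2 at -0.34, Abca7 at -0.50 and Abca2 at -0.27. Abca7 and Abca2 were named after their values were seen.

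In the authors' deposited table, which rests on the same 6 libraries and gives KO over WT as its sign, all 27 genes had the sign found here. The lowest adjusted p among them in the authors' deposited table was 0.257, for Hmgcs1. Over the genes with an adjusted p in the authors' deposited table, 1.22% were higher and 0.282% lower in KO.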

How the data were processed

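The authors deposited raw read counts per gene symbol, judged from the values, which are whole numbers. The submitters' processing notes name STAR 2.5.2a, featureCounts and DESeq2 1.12.4, and give mm10 and hg19 as builds without saying what each was used for. The authors' deposited table holds, per the file headers, a mean normalized signal, log2 fold changes and their standard errors, the Wald score, and raw and adjusted p-values. The strand setting, the annotation and how shared reads were treated were not given in the sources used here.

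With edgeR 4.0.16, filterByExpr retained 19565 genes, which were scaled by TMM and tested with the robust quasi-likelihood test, KO against WT, with Benjamini-Hochberg adjustment over all genes. The threshold was an FDR of 0.05. CPM uses TMM-scaled library sizes, and RPKM divides CPM by GENCODE M21 exon length. The 95% intervals use the standard error and residual degrees of freedom of each fit. On simulated data the fits returned the direction and size of the changes put in, while the share of false calls lay above the nominal FDR in each fit. The common biological coefficient of variation over all genes was 15.3%, and among the members counting error is largest for Fdps. Each pair of libraries differed by more than sampling noise. Whether the libraries come from separate litters is not stated, so the p-values reflect the spread among 6 samples, which may not be independent litters. The members and lists were chosen with earlier results of these data known. All 27 members are named, and of each context list the genes past the threshold and the 2 with the lowest p-values, apart from 1 gene that is not reported here. DESeq2 1.42.0 and limma 3.58.1 in R 4.3.3 served as alternatives, as did other factors and filters, a replicate block and fits without libraries.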

Additional observations from a re-analysis of the deposited data

How the results depend on the processing

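In each of the 15 alternative fits 0 of the 27 genes passed, and the lowest adjusted p among them ran from 0.0868 (Tm7sf2, without WT replicate 1) to 0.999 (Acat2, without WT replicate 2). The number of all genes passing, then higher and lower, was 129, 122 and 7. It was 211, 190 and 21 with no filter on low counts, 318, 258 and 60 in the DESeq2 Wald test, 459, 265 and 194 without KO replicate 1 and WT replicate 1, and 20, 16 and 4 without WT replicates 2 and 3. Without single libraries it was 36 to 388, 33 to 233 and 3 to 155. Context genes passing numbered 1, higher in KO. They were 4 in all and 3 lower without KO replicate 1 and WT replicate 1, 0 in all and 0 higher without WT replicates 2 and 3, and 0 to 4 in all, 0 to 1 higher and 0 to 3 lower without single libraries. The causes were not tested. Signs turned for genes that had not passed. Without WT replicates 2 and 3 the log2 value was -0.012 for Acat2, 0.091 for Fdps, 0.054 for Hsd17b7, 0.020 for Nr1h2 and 0.018 for Tm7sf2. Without KO replicate 1 and WT replicate 1 it was -0.026 for Idi1, 0.011 for Scap, -0.0081 for Sqle and -0.028 for Stard4. Without single libraries it ran from -0.000712 to 0.067 for Acat2, from -0.060 to 0.027 for Mvd, from 0.0054 to 0.078 for Idi1, from -0.016 to 0.064 for Sqle, from -0.050 to 0.027 for Scap and from 0.0038 to 0.12 for Stard4. It turned without KO replicate 1 (Acat2, Sqle), KO replicate 2 (Mvd, Scap), KO replicate 3 (Sqle) and WT replicate 1 (Scap).
The replicate numbers were not shown to pair the samples, since deviations from the group means correlated at 0.651, 0.360 and 0.0544 for numbers 1, 2 and 3. A replicate block gave 282 genes, 212 higher and 70 lower, and again 0 of the 27. Depth limits Fdps most, at 181 to 307 counts a library.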
